A study of Drosophila melanogaster with 18 samples.

Results

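Of the 529 gene entries with alternative poly(A) sites counted in this study of Drosophila melanogaster testes, 505 had exactly 2 sites. In 143 of these the site positions lay at most 250 nt apart, and these close pairs are described here. The position of a site was its 3′ edge along the strand. Within the authors' list of 1098 sites the pairs were picked by distance alone, though with earlier results of these data known. The title of that list mentions both bam and spermatocytes. How its sites were selected is not given, so measured levels may have shaped it. Where shares of all genes are given below, they refer to genes of this list and not to the whole genome. The 143 entries carry 142 symbols, because loqs has 2 entries with separate sites, and 141 had the mean of at least 10 counts per library over both sites that was asked for a test. The remaining entries, CG45766 on the Y chromosome and mod(mdg4), had means of 0.222 and 3.72 counts and are left out below.

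The 18 libraries were 3′-end sequencing of whole testes, with about 150 pairs of testes in each and 2 libraries in each of 9 groups. Control flies carried bamGal4, a driver active in late spermatogonia and early spermatocytes, with no knockdown. In the other groups the same driver directed a knockdown of PCF11 (PCF11_KD, and a second RNAi line, PCF11_NIG_KD), cbc (cbc_KD), CstF64 (CstF64_KD), CstF50 (CstF50_KD), su(f) (suf_KD), CPSF6 (CPSF6_KD) or PABP2 (PABP2_KD). Crosses were held at 25 °C for 3 days and progeny were raised at 29 °C. Fly ages are not given, and nothing states that the duplicates were separate crosses. The p values rest on the spread between duplicates, pooled over all 9 groups and not taken from the libraries compared alone. That spread may be technical. The driver is active in only part of the cells, since testes also hold other spermatogonia, spermatids and somatic cells. Which cells lost the factor was not measured. In bulk testes fewer cells of a type and less RNA per cell cannot be told apart, and a share of sites mixes the shares of all cells present.

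Most transcripts are cut and polyadenylated by a machine that reads an AAUAAA-like signal upstream of the cut and U- or GU-rich elements downstream of it. CstF64, CstF50 and su(f), the fly CstF77, form the cleavage stimulation factor, which binds the downstream element. PCF11 and cbc, the fly Clp1, belong to cleavage factor II, CPSF6 to cleavage factor I, and PABP2 coats the growing tail in the nucleus. A gene with more than 1 site makes transcripts that differ in the 3′ UTR, the stretch that carries binding sites for RNA-binding proteins and small RNAs. With the sites of a pair as near as here, the transcripts differ by a short piece of UTR.

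The distance within a pair ran from 103 to 250 nt, with a median of 165 nt and quartiles of 133 and 206.5 nt. No pair was near enough for the 30-nt counting blocks to overlap (0 of 143). By annotation, 135 proximal sites fell in a 3′ UTR, 7 downstream of the gene end and 1 in an intron. Of the distal sites 84 fell in a 3′ UTR, 55 downstream of the gene end, 3 in an intron and 1 in coding sequence. The distal site fell within 20 nt of an annotated UTR end in 83 pairs, and the proximal site did so in 27. Pairs were found on chromosomes 3R (34), 3L (32), 2R (28), 2L (26), X (20), 4 (2) and Y (1). Counting ignored strand, and in 39 pairs an annotated gene of the opposite strand covered a site, so that reads of both genes cannot be told apart there. The tables name 50 of the 143 entries by a CG number only.

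In control testes most close pairs used the proximal site more than the distal one. The median proximal share, proximal counts as a percent of those at the 2 sites together, was 64.5 and 68.3% in the control libraries, a mean of 66.4% ± 2.68 (SD, n = 2). Over all 525 genes tested it was 77.4% ± 1.72. The proximal site held more than 50% of the counts in 105 of 141 pairs (74.5%) and over 90% of them in 22. The libraries held 342211 to 816748 counts at the sites used, of which 22.2 to 29.1% were in close pairs, and the median member had a mean of 229 counts per library against 322.5 over all genes. In every group the replicates differed by more than sampling noise, least in CstF64_KD (chi-square per degree of freedom 3.21) and most in cbc_KD (17.7) and PABP2_KD (61.5).

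The median proximal share of close pairs was lower than in the controls with knockdown of PCF11, cbc, su(f), PABP2 or CstF64, and higher with knockdown of CstF50 or CPSF6. The library medians of the proximal share were 44.9 and 47.6% in PCF11_KD, 53.2 and 53.4% in PCF11_NIG_KD and 37.1 and 42.1% in cbc_KD. Values of 60.6 and 60.7% were found in CstF64_KD, 52.5 and 54.3% in suf_KD and 49.5 and 53.8% in PABP2_KD, so that both libraries of these 6 groups lay below both controls. In CstF50_KD they were 70.9 and 72.4% and in CPSF6_KD 71.4 and 73.2%, above both controls. With 2 libraries against 2 an exact permutation test of such medians cannot pass 0.05. The share of all counts of the tested pairs pooled, where pairs with many counts weigh most, went the other way in these last groups. It was 74.7% in the controls, 72.7% in CstF50_KD and 71.8% in CPSF6_KD. The median change within a pair was largest with cbc_KD, at -20.2 percentage points. PCF11_KD gave -15.3 and the other PCF11 line, PCF11_NIG_KD, -11.8. PABP2_KD gave -13.1, suf_KD -9.25 and CstF64_KD -4.66. It was 0.803 in CPSF6_KD and 0.572 in CstF50_KD, and the latter was -0.734 without control replicate 1. Without control replicate 2 the CPSF6_KD value was 2.36.

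**Figure D1:**
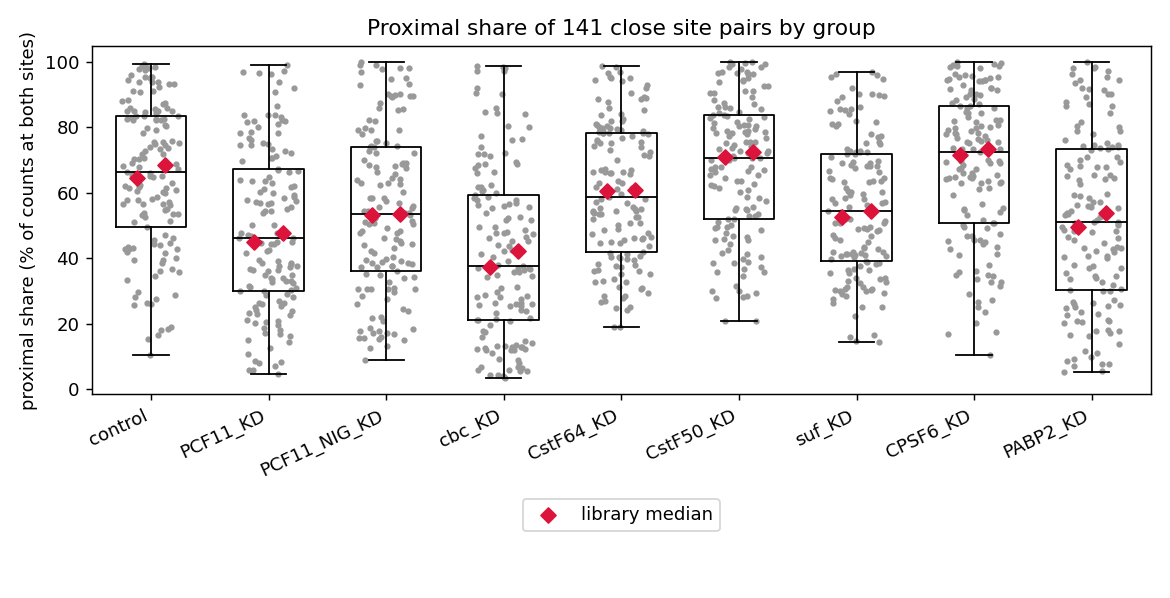
Proximal share (percent of the counts at both sites) of the 141 tested close pairs in each group. Grey points are pairs (mean of 2 libraries), boxes span the quartiles with the median as a line, whiskers reach 1.5 box lengths at most, and red diamonds are the 2 library medians, which are lowest in cbc_KD at 37.1 and 42.1% and highest in CstF50_KD and CPSF6_KD, between 70.9 and 73.2%.

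Single pairs were tested with edgeR's quasi-likelihood test on the counts of both sites, at an adjusted p of 0.05 (Benjamini-Hochberg over all 525 genes). The tested value was a change in log2 odds (proximal over distal counts, knockdown minus control), and a negative value is a move to the distal site. All 8 comparisons use the same 2 control libraries, so their counts are not independent. In cbc_KD 91 of 141 pairs moved to the distal site (64.5%, against 60.6% of all genes) and 6 to the proximal site (4.26%, against 6.67%). In PCF11_KD 78 moved to the distal site (55.3%, against 43.8%) and 6 to the proximal site (4.26%, against 9.52%). In PCF11_NIG_KD 68 moved to the distal site (48.2%, against 33.9%) and 12 to the proximal site (8.51%, against 12.4%). The 6 pairs toward the proximal site in PCF11_KD were 2 without control replicate 1, and 3 without control replicate 2 or PCF11_KD replicate 2.

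Among the subunits of the cleavage stimulation factor, in suf_KD 56 pairs moved to the distal site (39.7%, against 26.1% of all genes) and 3 to the proximal site (2.13%, against 11.6%). In CstF64_KD 42 moved to the distal site (29.8%, against 17.7%) and 13 to the proximal site (9.22%, against 21.1%), a count that was 5 without control replicate 1 and 7 without CstF64_KD replicate 1. In CstF50_KD 19 moved to the distal site (13.5%, against 6.86%) and 24 to the proximal site (17.0%, against 33.9%). The 19 close pairs were 52.8% of the 36 genes that CstF50_KD moved to the distal site. That count was 11 without CstF50_KD replicate 1, 12 without replicate 2 and 11 without control replicate 2, and the count toward the proximal site was 12 without control replicate 1 and 14 without CstF50_KD replicate 1.

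In PABP2_KD 72 pairs moved to the distal site (51.1%, against 37.3% of all genes) and 14 to the proximal site (9.93%, against 21.7%). Fitted with the control and PABP2_KD libraries alone these counts were 46 and 6, and without control replicate 1 the count toward the proximal site was 7. In CPSF6_KD 21 pairs moved to the distal site (14.9%, against 14.7%), the share of all genes, and 29 to the proximal site (20.6%, against 24.2%), a count that was 17 without control replicate 1 and 18 without CPSF6_KD replicate 2. In each of the 8 knockdowns the share of close pairs called toward the distal site was above that of all genes and the share called toward the proximal site below it, and these differences were not tested.

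The share of genes called changed with the distance between the sites. For CstF64_KD 29.8% of close pairs, 22.0% of pairs 251 to 600 nt apart and 4.14% of pairs over 600 nt apart moved to the distal site, and 9.22, 17.8 and 36.7% moved to the proximal site. For CstF50_KD the shares toward the proximal site were 17.0, 33.5 and 52.1% in the same order. For suf_KD those toward the distal site were 39.7, 28.8 and 12.4%, and for PABP2_KD 51.1, 44.0 and 18.9%. In cbc_KD they were 64.5, 66.0 and 53.3%, and in CPSF6_KD 14.9, 19.4 and 8.88%, so that the close pairs did not have the highest share in these 2 knockdowns. Among the close pairs themselves distance and change in share went together little. Spearman's rho over the 141 pairs, a description since pairs share libraries, ran from -0.0656 in cbc_KD to 0.160 in CstF50_KD.

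**Figure D2:**
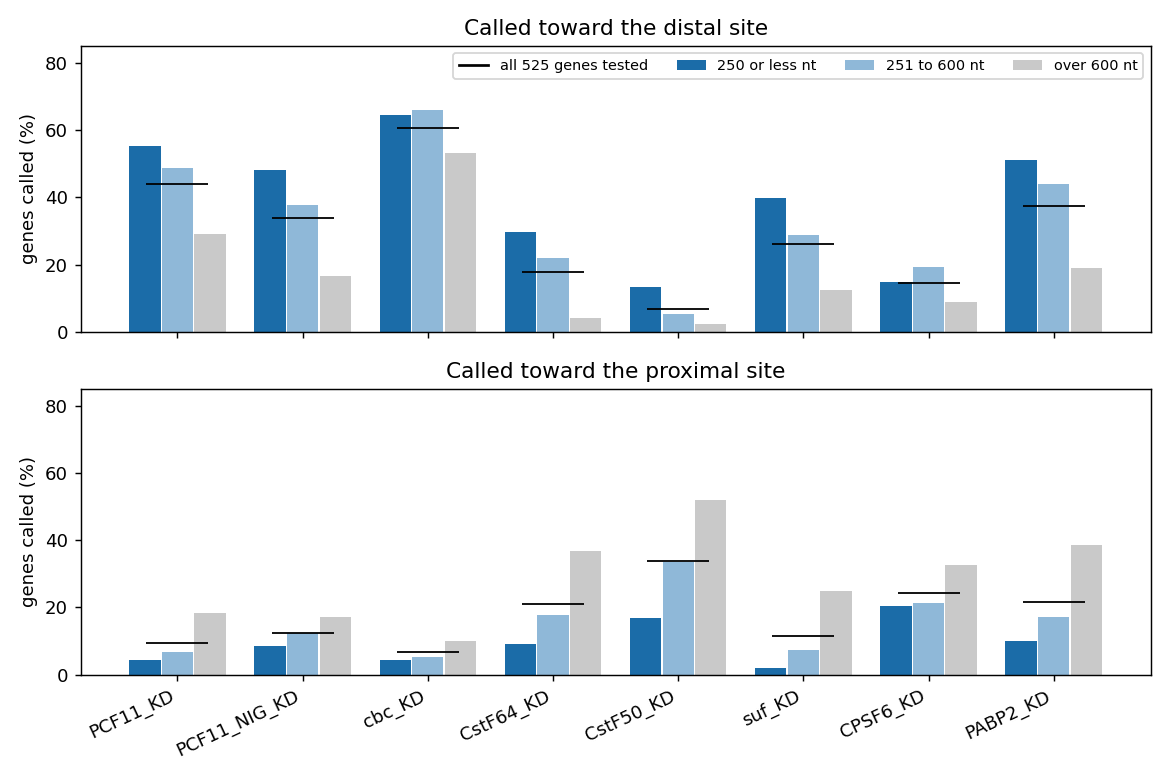
Percent of genes called toward the distal site (top) and toward the proximal site (bottom) in each knockdown by the distance between their sites, with a black line for all 525 genes tested. In CstF50_KD the share called toward the proximal site is 17.0% of close pairs, 33.5% of pairs 251 to 600 nt apart and 52.1% of pairs over 600 nt apart.

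The distal site was called in at least 1 knockdown in 101 of 141 close pairs (71.6%, against 66.3% of all genes), in at least 6 in 37 (26.2%, against 16.4%) and in all 8 in 8 (5.67%, against 3.62%). The proximal site was called in at least 6 knockdowns in 2 pairs, heph and sbb (1.42%, against 6.29%). That count was 1 without control replicate 1, 3 without control replicate 2 and 5 with the replicate number as a block. Calls in both directions were found in 18 pairs (12.8%, against 22.9%) and no call in 15 (10.6%, against 9.33%), among them Khc (kinesin heavy chain), eIF2alpha (a translation initiation factor), the exchanger Nhe1 and mei-41 (the ATR checkpoint kinase). Since the comparisons share their controls, a control library sets part of this. Without control replicate 1 the distal site was called in all 8 knockdowns in 6 pairs, without replicate 2 in 5, and in at least 6 knockdowns in 37 and 30. Of the 554 calls of close pairs in the 8 knockdowns, 186 (33.6%) were lost in at least 1 of the 4 fits that left out a library, from 22.7% of those in cbc_KD to 55.8% of those in CstF50_KD, and 0 changed direction.

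**Figure D3:**
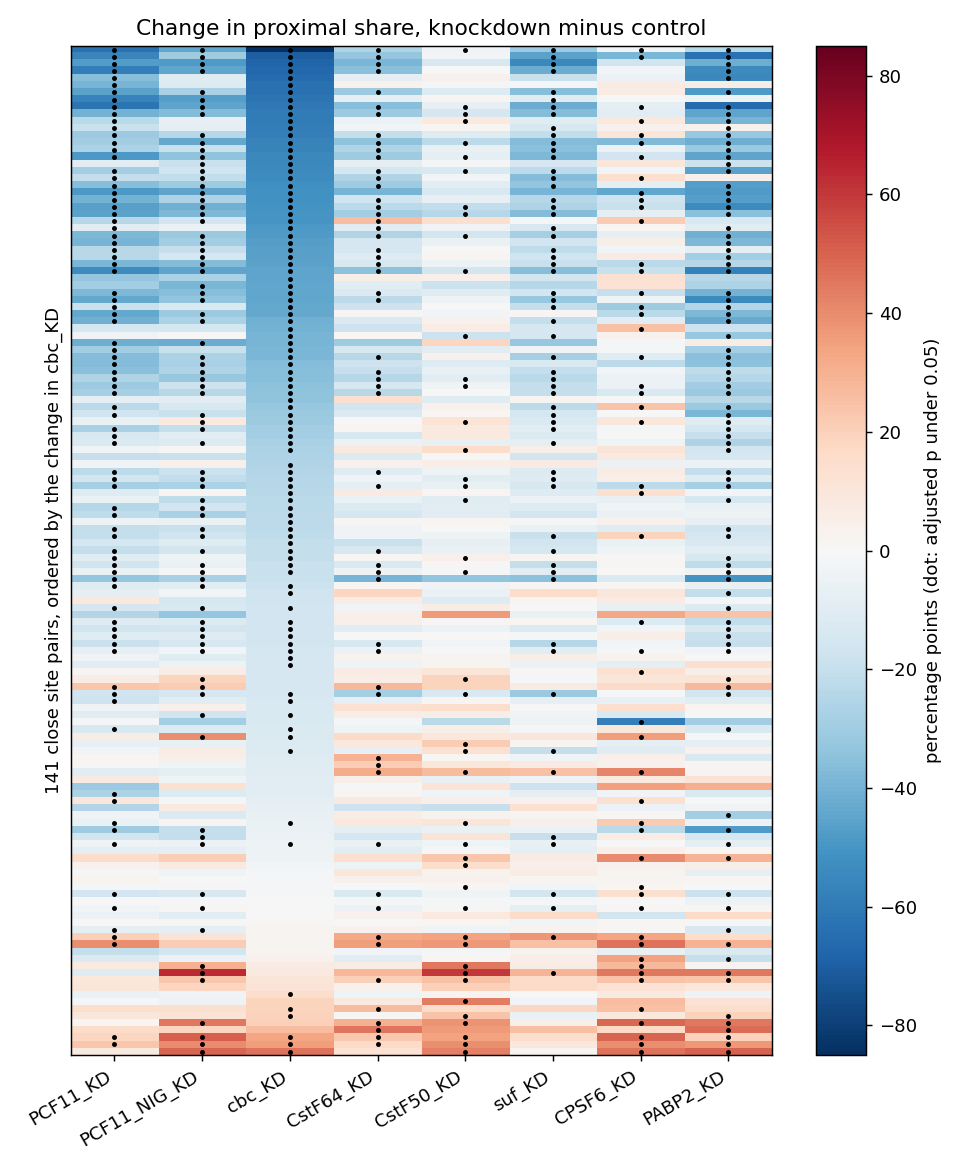
Change in mean proximal share (percentage points, knockdown minus control) of the 141 tested close pairs, ordered from top to bottom by the change in cbc_KD, with blue for a move to the distal site and red for one to the proximal site. Black dots mark adjusted p values under 0.05, of which cbc_KD has 91 in blue and 6 in red.

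The 8 pairs called toward the distal site in all 8 knockdowns were CG4686, CG8195, Mitofilin, Mlf, Trpm, bor, loqs (the 3′ end of loqs-PB) and pim. For CG4686, Mlf, bor and pim no call was lost when any 1 of the libraries compared was left out. CG4686 (uncharacterised; chromosome 3R, plus strand, 19866655 and 19866866, 211 nt apart) had the most counts of all close pairs. Its proximal share was 67.2 and 64.4% in the control libraries, 8.11 and 8.84% in PABP2_KD, 14.1 and 11.2% in PCF11_KD, 20.9 and 20.7% in PCF11_NIG_KD and 21.3 and 21.01% in cbc_KD. It was 30.8 and 31.3% in CstF64_KD, 30.1 and 29.5% in suf_KD, 48.5 and 45.1% in CPSF6_KD and 54.2 and 46.3% in CstF50_KD. Every knockdown library lay below both controls, and PABP2_KD libraries lay lowest (log2 odds -4.38 ± 0.17 SE, edgeR adjusted p = 5.40e-10). The total of both sites fell in PABP2_KD, by 0.37 ± 0.14 (log2, SE; adjusted p = 0.0336), and was not called in the other 7 knockdowns. The gene Mrp5 lies on the opposite strand at one of its sites.

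Mitofilin encodes a core subunit of the complex that shapes mitochondrial cristae (chromosome 3R, minus strand, 22019665 and 22019505, 160 nt apart). Its control libraries both had 82.2% of counts at the proximal site, PABP2_KD had 17.6 and 15.7%, PCF11_KD 20.7 and 19.5% and cbc_KD 20.7 and 22.6%. The shares were 35.5 and 39.3% in PCF11_NIG_KD, 39.98 and 39.8% in suf_KD and 46.00 and 46.2% in CstF64_KD. The smallest called changes were in CPSF6_KD, with 75.6 and 71.8%, and in CstF50_KD, with 75.3 and 75.8%, whose call (edgeR adjusted p = 0.0097) was lost in 2 of 4 fits that left out a library (adjusted p up to 0.0542). No total of Mitofilin passed the edgeR test, with adjusted p values from 0.0517 to 0.609.

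Trpm, a cation channel of the TRP family, kept nearly all counts at the proximal site in control testes (97.1 and 97.9%; chromosome 2R, minus strand, 15266588 and 15266379, 209 nt apart). The share was 13.4 and 12.2% in cbc_KD (log2 odds -8.06 ± 0.35, edgeR adjusted p = 2.59e-10), the largest change in any close pair. It was 31.1 and 36.5% in PCF11_KD, 50.6 and 56.3% in PCF11_NIG_KD, 67.6 and 65.6% in suf_KD, 70.2 and 73.1% in CstF64_KD and 68 and 78.2% in PABP2_KD. In CstF50_KD and CPSF6_KD it was 95.3 and 93.1% and 95.6 and 94.9%, calls that were lost without single libraries (adjusted p up to 0.0985 and 0.207). The total of Trpm also fell, by 2.23 ± 0.33 (log2, SE) in cbc_KD (edgeR adjusted p = 3.47e-05).

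Mlf, the fly myeloid leukemia factor, had proximal shares of 84.9 and 84.7% in the controls and 29.8 and 29.7% in cbc_KD, 36.4 and 36.3% in PCF11_KD, 47.95 and 45.9% in suf_KD and 78.6 and 74.7% in CstF50_KD. The AAA ATPase bor went from 95.2 and 95.2% in the controls to 60.4 and 60.7% in cbc_KD, 63.8 and 65.5% in PCF11_KD and 66.1 and 64.98% in PABP2_KD, with 91.9 and 93.2% in CstF50_KD. The uncharacterised CG8195 had 59.04 and 67.1% in the controls, 7.54 and 10.8% in PABP2_KD and 11.9 and 12.1% in cbc_KD. In these 3 genes no knockdown library overlapped the controls. The loqs gene, whose products help Dicer-1 and Dicer-2 to cut small RNA precursors, has its loqs-PB pair 133 nt apart. It had 83.4 and 83.3% at the proximal site in the controls, 50.7 and 59.9% in PABP2_KD, 54.8 and 54.9% in PCF11_KD and 57.2 and 65.3% in CPSF6_KD. Its CstF50_KD call (edgeR adjusted p = 0.0409) was lost without any 1 of the libraries compared, its CstF64_KD call in 3 of 4 such fits (adjusted p up to 0.0907) and the CPSF6_KD call of CG8195 in some (adjusted p up to 0.0949).

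**Figure D4:**
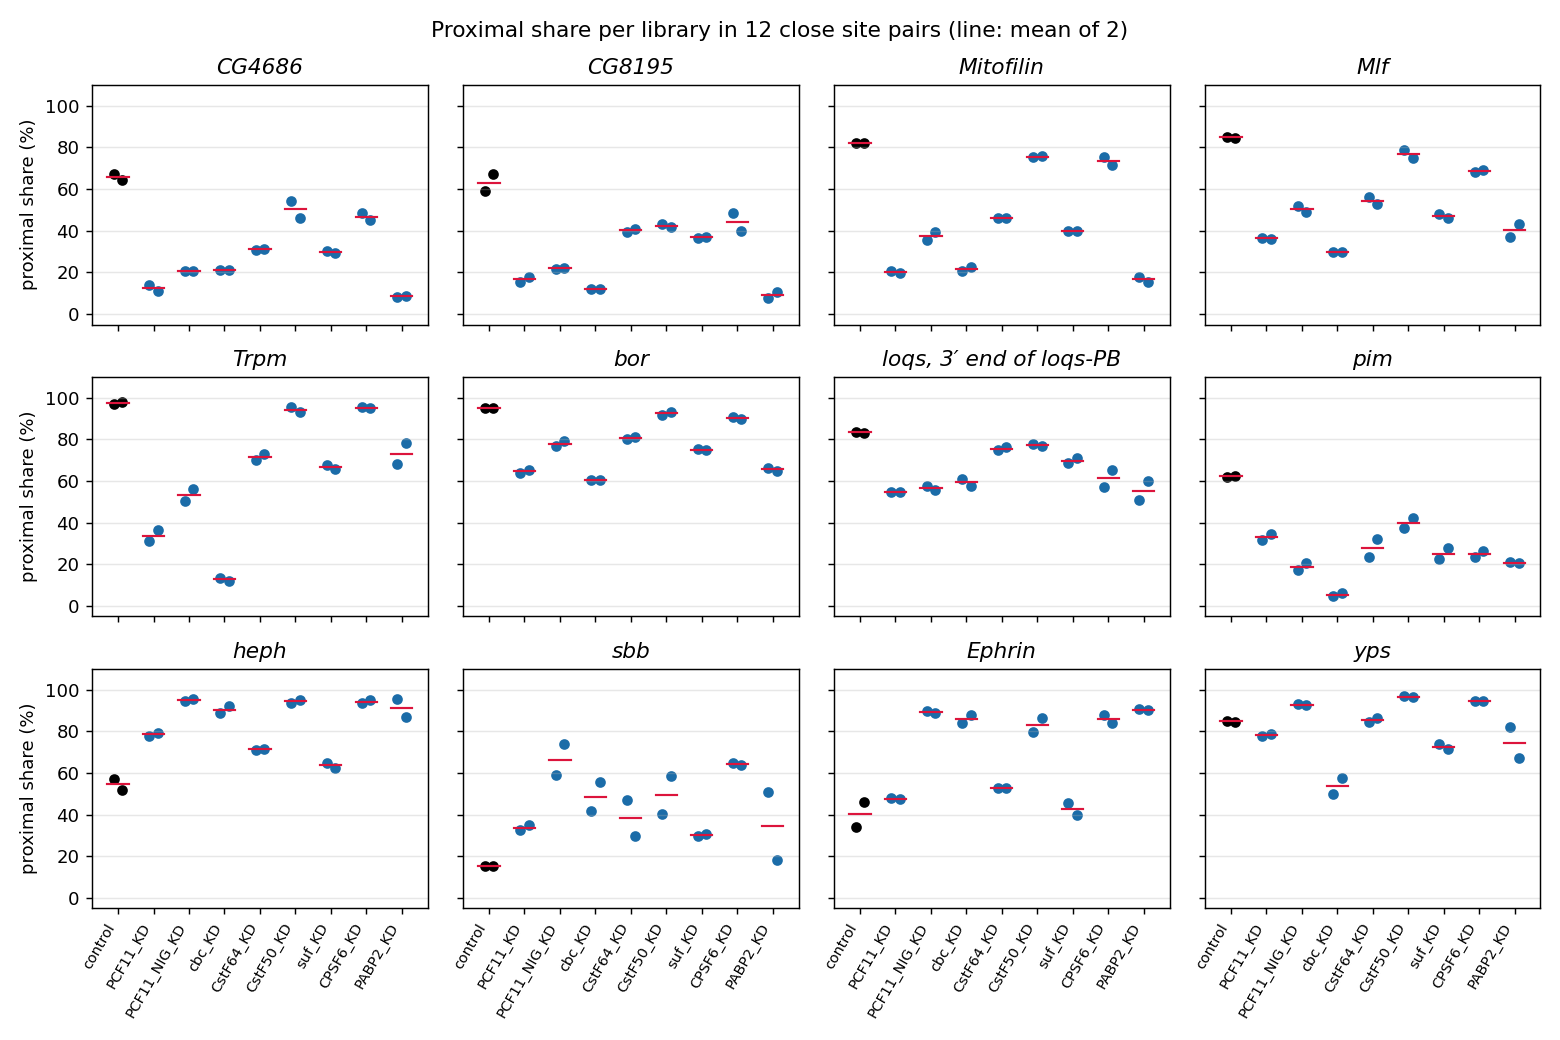
Proximal share (percent) in each library for 12 close pairs, with black points for control libraries, blue points for knockdown libraries and a red line for the mean of 2. The first 8 panels are the pairs called toward the distal site in all 8 knockdowns. heph and sbb were called toward the proximal site in 7, Ephrin in 5, and yps was called in both directions, at 49.9 and 57.7% in cbc_KD and 96.7 and 96.4% in CstF50_KD against 84.9 and 84.5% in the controls.

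Among genes of the cell cycle and meiosis, pairs of 6 listed genes were tested and 5 moved to the distal site in cbc_KD, in PCF11_KD and in PABP2_KD. The counts were 4 in PCF11_NIG_KD, CstF64_KD and suf_KD, 2 in CPSF6_KD and 1 in CstF50_KD. The single call toward the proximal site was Wee1 in CPSF6_KD. Of all genes 60.6, 43.8 and 37.3% were called toward the distal site in cbc_KD, PCF11_KD and PABP2_KD, and of close pairs 64.5, 55.3 and 51.1%. For PCF11_NIG_KD, CstF64_KD, suf_KD, CPSF6_KD and CstF50_KD the shares of all genes were 33.9, 17.7, 26.1, 14.7 and 6.86%. The median change over the 6 was -50.3 points in cbc_KD and -30.2 in PCF11_KD. There all tested genes had -16.2 and -6.24, and all tested close pairs -20.2 and -15.3. pim, the fly securin that holds separase until anaphase, had 62.01 and 62.4% at the proximal site in the controls and 4.96 and 6.10% in cbc_KD (log2 odds -4.81 ± 0.29, edgeR adjusted p = 5.92e-09). In CstF50_KD pim had 37.6 and 42.01% and in CPSF6_KD 23.7 and 26.3%, both below the controls. mei-S332, the shugoshin that guards cohesin at centromeres, had 59.3 and 61.9% in the controls, 7.61 and 10.2% in cbc_KD and 13.1 and 14.6% in PABP2_KD, and it was called in 7 knockdowns, with CstF50_KD outside (adjusted p = 0.0613).

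Wee1, a kinase that holds Cdk1 inactive, had 75.5 and 65.2% at the proximal site in the controls and 11.7 and 12.4% in cbc_KD. In CPSF6_KD it had 81.7 and 79.6%, above both controls, a call (edgeR adjusted p = 0.0304) lost in 3 of 4 fits that left out a library (adjusted p up to 0.257, without control replicate 2). CycB3, a mitotic and meiotic cyclin, had 89.7 and 92.6% in the controls, 38.9 and 45.7% in cbc_KD and 82.3 and 81.2% in PCF11_KD. gwl, the Greatwall kinase that restrains the phosphatase PP2A, had 50 and 35.5% in the controls, 3.67 and 7.60% in cbc_KD and 9.22 and 2.65% in PCF11_KD. The totals of gwl rose by 2.86 ± 0.21 (log2, SE) in cbc_KD (edgeR adjusted p = 3.82e-08) and 2.24 ± 0.21 in PABP2_KD, and those of mei-S332, Wee1 and pim rose in 7, 7 and 7 knockdowns. mei-41 was not called for site use in any knockdown, with a mean of 24.8 counts per library and control shares of 72.7 and 33.3%.

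Of the 2 listed mitochondrial genes, Tom70, an import receptor of the outer membrane, was called toward the distal site in 4 knockdowns. It had 86.4 and 85.2% at the proximal site in the controls, 42.2 and 50.3% in cbc_KD, 62.4 and 44.9% in PABP2_KD, 65.3 and 70.1% in CstF50_KD and 69.2 and 74.4% in suf_KD. Site use was not called in either PCF11 group, with 82.5 and 83.8% in PCF11_KD, just below both controls, and 84.7 and 87.1% in PCF11_NIG_KD, which overlapped them. The direct contrast of cbc_KD with PCF11_KD was -2.52 ± 0.30 (log2 odds, SE; edgeR adjusted p = 1.52e-05). CG18788 lies on the opposite strand at one Tom70 site.

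All 3 listed trafficking genes moved to the distal site in cbc_KD, PCF11_NIG_KD and PABP2_KD, where 60.6, 33.9 and 37.3% of all genes did. The shares of close pairs there were 64.5, 48.2 and 51.1%. By edgeR or DESeq2 0 of the 3 moved to the proximal site in any knockdown, with 1 toward it at an unadjusted p under 0.05, in CPSF6_KD. The SNARE protein Syx6 had 73.7 and 77.3% at the proximal site in the controls, 13.5 and 10.8% in cbc_KD, 31.00 and 29.3% in PCF11_KD and 82.9 and 80.9% in CPSF6_KD, the last not called (edgeR adjusted p = 0.32). Syx7, another SNARE, had 43.4 and 42.5% in the controls and 18.4 and 17.1% in cbc_KD. Clathrin heavy chain, Chc, had 82.6 and 88.6% in the controls, 60.2 and 68.1% in PCF11_NIG_KD and 81.5 and 78.9% in PCF11_KD, which was not called (adjusted p = 0.0918).

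Pairs of 6 entries for RNA processing and translation were tested, and they were divided. twin, the CCR4 subunit of the main deadenylase, was called toward the distal site in 6 knockdowns. Its proximal share was 95.2 and 95.6% in the controls, 75.4 and 77.1% in cbc_KD, 75.4 and 75.3% in suf_KD, 67.1 and 80.00% in PABP2_KD and 96.9 and 96.1% in CstF50_KD. The direct contrast of CstF50_KD with suf_KD was 3.18 ± 0.25 (log2 odds, SE; edgeR adjusted p = 3.87e-07). yps, a Y-box protein that binds mRNA, moved to the distal site in cbc_KD (49.9 and 57.7%, against 84.9 and 84.5% in the controls) and suf_KD (73.7 and 71.4%), the latter lost without suf_KD replicate 2 (edgeR adjusted p = 0.063). It moved to the proximal site in CstF50_KD (96.7 and 96.4%), CPSF6_KD (94.5 and 94.3%) and PCF11_NIG_KD (93.1 and 92.5%), where both libraries lay above both controls. The PABP2_KD libraries of yps were 81.99 and 67.04%, and that call toward the distal site (edgeR adjusted p = 0.0181) was lost in 3 of 4 fits that left out a library (adjusted p up to 0.204, without PABP2_KD replicate 2).

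heph, the fly polypyrimidine tract-binding protein, went the other way (chromosome 3R, minus strand, 31851475 and 31851329, 146 nt apart). Its proximal share was 57.3 and 51.9% in the controls, 94.6 and 95.4% in PCF11_NIG_KD, 93.4 and 95.2% in CstF50_KD, 93.5 and 94.8% in CPSF6_KD, 95.6 and 87.03% in PABP2_KD and 88.6 and 92.1% in cbc_KD. It was 77.6 and 79.3% in PCF11_KD, 71.04 and 71.6% in CstF64_KD and 64.96 and 62.2% in suf_KD, so that all 16 knockdown libraries lay above both controls. The edgeR test called 7 of 8 knockdowns, CstF64_KD by a small margin (adjusted p = 0.0496, and lost in each of 4 fits that left out a library) and not suf_KD (adjusted p = 0.306). The second line for PCF11 differed from the first, by 2.38 ± 0.41 (log2 odds, SE; adjusted p = 0.00112). The total of heph fell in 5 knockdowns, by 0.95 ± 0.21 (log2, SE; adjusted p = 0.00248) in CPSF6_KD.

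Genes for chromatin and transcription were split as well. Of 6 listed genes tested, sbb and IntS10 accounted for the calls toward the proximal site in PCF11_KD, CstF64_KD, CstF50_KD and PABP2_KD. sbb, a nuclear corepressor, had 15.2 and 15.2% at the proximal site in the controls, 64.9 and 64% in CPSF6_KD and 58.9 and 73.7% in PCF11_NIG_KD, and its PABP2_KD libraries were 50.8 and 18.3%. That last call was lost in 3 of 4 fits that left out a library (edgeR adjusted p up to 0.711, without PABP2_KD replicate 1), and those in PCF11_KD, CstF64_KD and CstF50_KD were lost in 4, 3 and 1 of 4 such fits (adjusted p up to 0.137, 0.233 and 0.0774). IntS10, a subunit of Integrator, had 16.7 and 20% in the controls, 51.9 and 63.6% in PCF11_KD and 52.9 and 76% in CPSF6_KD at a mean of 33.3 counts, and its calls in CstF64_KD, CstF50_KD, CPSF6_KD and PABP2_KD were lost without single libraries.

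Taf8, a subunit of the general transcription factor TFIID, was called toward the distal site in 6 knockdowns, with 75 and 73.1% in the controls and 16.2 and 18.7% in cbc_KD. Its calls in PCF11_NIG_KD and CstF64_KD were lost in 3 and 2 of 4 fits that left out a library (edgeR adjusted p up to 0.187 and 0.0836). Taf7, of the same factor, had 61.4 and 61.7% in the controls, 44.9 and 45.1% in PCF11_KD, 45.7 and 46.7% in suf_KD and 76.2 and 74.6% in CPSF6_KD, the last a move to the proximal site (edgeR adjusted p = 0.00888). E(bx), the large subunit of the remodelling complex NURF and on no list, had 78.9 and 81.7% in the controls, 6.31 and 23.2% in cbc_KD and 30.5 and 20% in PABP2_KD. HDAC4, a histone deacetylase, was called only in CPSF6_KD, with 84 and 85.7% in the controls and 41.7 and 12.5% there, and without CPSF6_KD replicate 2 the adjusted p was 0.133.

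Of the 5 listed signalling genes 0 moved to the distal site in any knockdown, by edgeR, by DESeq2 or at an unadjusted p under 0.05. By edgeR the share of all genes that did ran from 6.86% in CstF50_KD to 60.6% in cbc_KD. This holds for the listed genes only, since the kinases Wee1 and gwl, counted above with the cell cycle, moved to the distal site in cbc_KD. Toward the proximal site 3 of the 5 moved in PCF11_NIG_KD, CstF50_KD, CPSF6_KD and PABP2_KD, where 12.4, 33.9, 24.2 and 21.7% of all genes did. In cbc_KD and CstF64_KD 2 moved (6.67 and 21.1% of all genes) and in suf_KD 1 (11.6%). In PCF11_KD edgeR, DESeq2 and the unadjusted p all gave 0 (9.52% of all genes by edgeR). Of these calls, that of flfl was lost in 4 of 4 fits without a library in CstF64_KD (edgeR adjusted p up to 0.191) and in 3 of 4 in CstF50_KD (up to 0.163), and that of the kinase Slik in cbc_KD in 2 of 4 (up to 0.0743). Ephrin, the ligand of the Eph receptor, had 34.2 and 46.1% at the proximal site in the controls, 89.8 and 88.9% in PCF11_NIG_KD, 90.4 and 90.1% in PABP2_KD, 87.9 and 84.1% in CPSF6_KD and 84.1 and 87.8% in cbc_KD. It had 47.8 and 47.6% in PCF11_KD, and the difference between both PCF11 lines was 3.18 ± 0.34 (log2 odds, SE; edgeR adjusted p = 2.96e-05). flfl, a regulatory subunit of protein phosphatase 4, had 46.6 and 44.3% in the controls, 89.1 and 100% in CPSF6_KD and 95.4 and 85.2% in PABP2_KD.

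The kinase Src42A had 9.09 and 27.3% in the controls and 75 and 81.2% in CstF50_KD at a mean of 19.3 counts per library, and each of its 5 calls was lost when a single library was left out. Galphas, a stimulatory G protein subunit, moved in CstF64_KD, from 33.6 and 40% to 65.3 and 67.2%, and its total rose there by 3.17 ± 0.29 (log2, SE; edgeR adjusted p = 1.79e-06). The call of its site use was lost without control replicate 1 (edgeR adjusted p = 0.1). In the other 7 knockdowns its site use was not called. The proximal sites of Ephrin, flfl, sbb and Src42A lay 747, 543, 646 and 510 nt from the nearest annotated UTR end, and their distal sites 593, 296, 510 and 306 nt.

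Of the centrosome and motor genes, spd-2, which builds the centrosome, was called toward the distal site in 4 knockdowns, with 50 and 57.5% at the proximal site in the controls and 37.5 and 37.8% in cbc_KD. Each of the 4 calls was lost in 3 of 4 fits that left out a library (edgeR adjusted p up to 0.376, in PABP2_KD). Its total rose in all 8 knockdowns, by 2.29 ± 0.14 (log2, SE) in suf_KD (edgeR adjusted p = 1.12e-08) and 0.92 ± 0.14 in CstF50_KD. Poc1, a centriole protein on no list, had 64.02 and 60.3% in the controls and 10.3 and 18.02% in cbc_KD. Grip71, of the gamma-tubulin ring complex and also on no list, had 51.4 and 55.8% in the controls, 4.68 and 1.87% in cbc_KD and 29.6 and 28.9% in CstF50_KD, the largest drop among the pairs called there. Its CstF50_KD call was lost without control replicate 2 (edgeR adjusted p = 0.00819, and 0.0522 without it).

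cnn, centrosomin, was called in 7 knockdowns, in both directions, although its proximal share lay between 89.97 and 100% in every library. Its distal site lies in coding sequence and received few counts. Among the ion transport genes, Stim, a calcium sensor of the endoplasmic reticulum, had 58.4 and 57.5% in the controls, 23.2 and 28.6% in cbc_KD and 82.02 and 82.3% in CPSF6_KD, moves in opposite directions (edgeR adjusted p = 2.89e-04 and 0.00261). Fsn, an F-box protein of a ubiquitin ligase, was called toward the distal site in 7 knockdowns, with 85.5 and 84.5% in the controls and 26.9 and 23.8% in cbc_KD, and its CstF50_KD call was lost in 3 of 4 fits that left out a library (edgeR adjusted p up to 0.0879). EMC1, of the membrane protein insertase of the endoplasmic reticulum and on no list, had 72.9 and 76.6% in the controls, 8.44 and 7.57% in cbc_KD and 73.8 and 74.6% in CstF50_KD, and the contrast of these knockdowns was -5.05 ± 0.23 (log2 odds, SE; adjusted p = 4.52e-10). r-cup, transcribed in spermatids after meiosis, was called in 7 knockdowns but by small steps, from 93.8 and 94.9% in the controls to 83.4 and 89.4% in PABP2_KD, and 4 of these calls (PCF11_KD, PCF11_NIG_KD, cbc_KD and CstF50_KD) were lost in fits without a single library.

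Among the 49 tested CG genes in cbc_KD 34 of 49 (69.4%) moved to the distal site and 57 of 92 (62.0%) others did, and in CstF50_KD 6 (12.2%) and 13 (14.1%) did. CG5098 had 71.8 and 75% at the proximal site in the controls and 2.90 and 4.40% in cbc_KD, and Grip71, above, had the lowest mean share of that group. CG11779 had 99.2 and 98.95% in the controls and 85.5 and 82.4% in cbc_KD, where its total fell by 2.44 ± 0.13 (log2, SE; edgeR adjusted p = 3.05e-09). CG4266, annotated as Isha, moved to the proximal site in 5 knockdowns, from 67.9 and 81.2% to 99.3 and 99.1% in CstF50_KD, and its CstF64_KD call was lost without control replicate 1 (edgeR adjusted p = 0.114).

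Direct contrasts between knockdowns, 28 in all and fitted across all genes, do not use the controls. Between cbc_KD and CstF50_KD 104 of 141 close pairs differed toward the distal site in cbc_KD (73.8%, against 75.0% of all genes) and 2 toward the proximal site (1.42%, against 1.33%). Against CPSF6_KD these counts were 101 (71.6%, against 70.3%) and 2 (1.42%, against 1.33%). CstF50_KD differed from suf_KD in 67 pairs toward the proximal site (47.5%, against 45.5%) and in 2 toward the distal site (1.42%, against 3.05%). It differed from CstF64_KD in 46 pairs toward the proximal site (32.6%, against 28.8%) and in 3 toward the distal site (2.13%, against 4.19%). CstF64_KD differed from suf_KD in 8 pairs toward the proximal site (5.67%, against 5.71%) and in 0 toward the distal site by edgeR, where 3 had an unadjusted p under 0.05. Between the PCF11 lines, PCF11_NIG_KD was more proximal than PCF11_KD in 29 pairs (20.6%, against 19.2%) and more distal in 3 (2.13%, against 3.43%). Between cbc_KD and PCF11_KD, both of cleavage factor II, 46 pairs were more distal in cbc_KD (32.6%, against 45.3%) and 9 more proximal (6.38%, against 5.52%).

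In most pairs called toward the distal site the level of the distal site was higher than in the controls and that of the proximal site lower. Levels per site were CPM plus 1, counts scaled to the library's total over both sites of the 525 genes tested after TMM scaling. In cbc_KD the 91 called pairs had a median log2 change of -1.07 at the proximal site and 1.87 at the distal site, and in 70 of them the proximal site was lower and the distal higher (76.9%, against 78.6% of all genes called toward the distal site), while both were higher in 16 and both lower in 5. In PABP2_KD these medians were -0.43 and 1.69 over 72 pairs, and in CstF64_KD -0.31 and 1.44 over 42. In the 24 pairs that CstF50_KD moved to the proximal site the medians were 0.43 at the proximal site and -1.74 at the distal site. A called pair has 1 site up relative to the other by construction. The levels show how each site changed relative to the genes tested, in bulk testes.

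**Figure D5:**
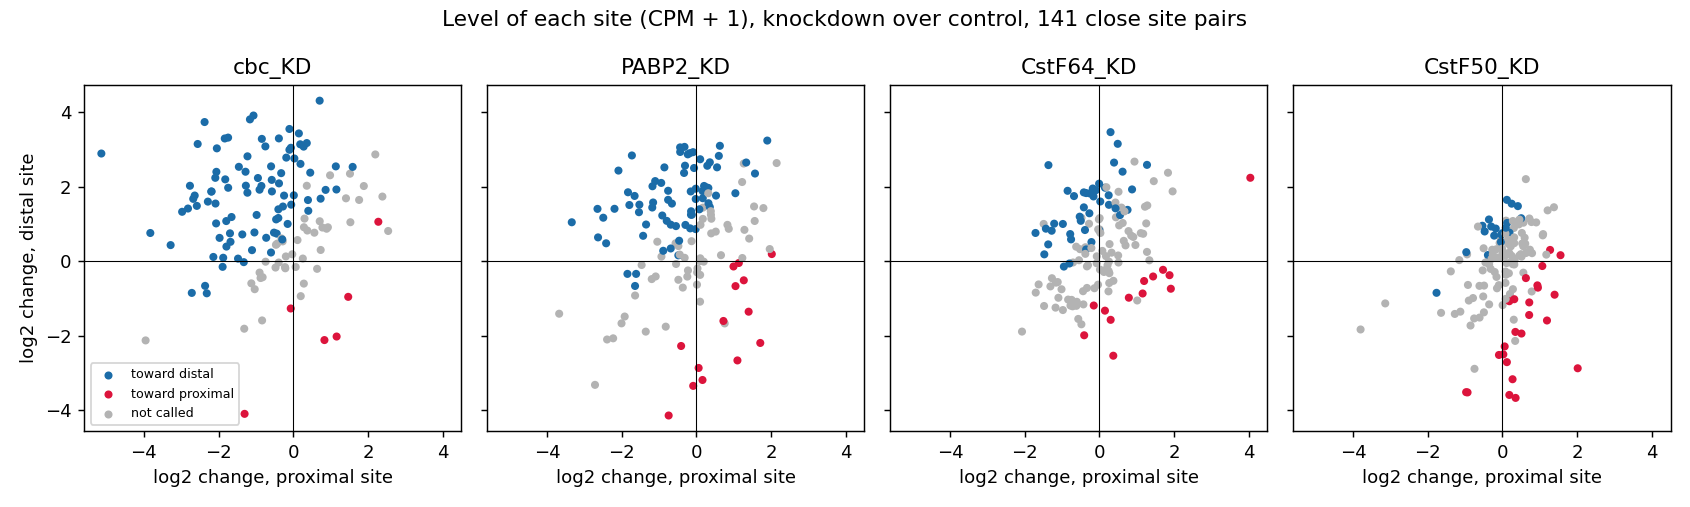
Log2 change of the level (CPM + 1) of the proximal site (horizontal) and distal site (vertical), knockdown mean over control mean, for the 141 tested close pairs in 4 knockdowns. Points called toward the distal site are blue, toward the proximal site red, and others grey; in cbc_KD 70 of 91 blue points lie at the upper left.

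More totals of both sites rose than fell in each knockdown. In PABP2_KD 60 of 141 rose (42.6%, against 32.4% of all genes) and 28 fell (19.9%, against 30.3%). In cbc_KD 59 rose (41.8%, against 32.4%) and 28 fell (19.9%, against 30.3%), and in PCF11_KD 41 rose (29.1%, against 23.4%) and 17 fell (12.1%, against 21.5%). In PCF11_NIG_KD 40 rose (28.4%, against 20.8%) and 21 fell (14.9%, against 22.7%). In suf_KD 43 rose (30.5%, against 25.3%) and 29 fell (20.6%, against 25.1%), and in CstF64_KD 42 rose (29.8%, against 24.2%) and 28 fell (19.9%, against 23.8%). In CPSF6_KD 29 rose (20.6%, against 20.8%) and 20 fell (14.2%, against 17.1%). In CstF50_KD 25 rose (17.7%, against 18.3%) and 20 fell (14.2%, against 17.7%). Of the 72 pairs called toward the distal site in PABP2_KD the total rose in 39 (54.2%, against 38.8% of all genes so called) and fell in 11 (15.3%, against 30.6%). Of the 91 in cbc_KD it rose in 42 (46.2%, against 33.0%) and fell in 21 (23.1%, against 35.5%), and these differences were not tested. Totals are relative to the genes of the site list, so a change common to all of them would not be seen. HDAC4 had the largest fall in cbc_KD, by 3.56 ± 0.36 (log2, SE; edgeR adjusted p = 6.07e-07), and it fell in 7 knockdowns. The kinase nonC, which acts in the decay of transcripts with early stop codons, had the largest rise in PCF11_KD (1.74 ± 0.23) with no call of site use in any knockdown, its proximal share lying between 94.2 and 100%.

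Counts of calls are given by the annotated position of the distal site, and the difference between these classes was not tested. Where the distal site lay downstream of the annotated gene end (54 tested pairs) 74.1% moved to the distal site in cbc_KD, 57.4% in PCF11_NIG_KD and 22.2% in CstF50_KD. Where it lay in an annotated 3′ UTR (84 pairs) the shares were 58.3, 42.9 and 7.14%. The classes lay nearer in CstF64_KD, with 33.3% downstream and 26.2% in a 3′ UTR. In suf_KD they hardly differed, with 38.9 and 38.1%, and the median change was smaller downstream (-6.75 against -9.89 points). Pairs with more than 50% of control counts at the proximal site (105) were called toward the distal site in 18.1% of cases in CstF50_KD and 47.6% in suf_KD, and the 36 pairs under 50% in 0 (also 0 by DESeq2 and at an unadjusted p under 0.05) and 16.7%. The control share enters both values compared here, so this is a description. In the 102 pairs with no other annotated gene at either site 63.7% moved to the distal site in cbc_KD and 12.7% in CstF50_KD, close to the 66.7 and 15.4% of the 39 others. Calls toward the proximal site were more frequent in the 102 pairs in every knockdown. They made up 20.6% against 7.69% of the others in CstF50_KD, and 25.5% against 7.69% in CPSF6_KD. The median change in CPSF6_KD was 2.78 points in the 102 pairs and -2.57 in the others, and these differences were not tested.

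At the near end of the range, CG1371 and CG1840 (each 103 nt) and emei (105 nt) were counted site by site like the rest. CG1840 had 71.4 and 72.1% at the proximal site in the controls, 36.8 and 36.1% in PCF11_KD and 36.6 and 34.7% in cbc_KD. CG1371 had 52.5 and 68.1% in the controls and 30 and 35.6% in PCF11_NIG_KD, where edgeR called it (adjusted p = 0.00931, and up to 0.0984 with a library left out), and emei had 42.9 and 40.6% in the controls and 19.9 and 26.2% in PABP2_KD. At the far end, just inside the limit, were alpha-Est5 (250 nt), flfl (247 nt) and Stim (246 nt). Just outside lay sgll (257 nt), Vha68-1 (258 nt) and pho (259 nt). alpha-Est5 had 83.6% ± 0.531 at the proximal site in the controls and 71.96% ± 4.98 in cbc_KD (SD, n = 2). Outside the limit sgll had 71.2% ± 7.26 and 77.2% ± 1.69, higher in cbc_KD. Vha68-1 had 90.9% ± 1.38 and 26.4% ± 4.63, and pho 58.1% ± 6.93 and 14.1% ± 11.1, both lower in cbc_KD (SD, n = 2).

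The authors' deposited tables score each comparison with a beta-binomial test and a signed index, positive for lengthening. At an adjusted value of 0.05 in the authors' deposited table for cbc_KD, 106 of 133 close pairs were lengthened (79.7%, against 72.1% of all genes in it) and 11 shortened (8.27%, against 12.6%). In the authors' deposited table for CstF50_KD 34 of 125 were lengthened (27.2%, against 14.5%) and 31 shortened (24.8%, against 53.3%). In the authors' deposited table for CstF64_KD 67 of 134 were lengthened (50.0%, against 32.7%) and 24 shortened (17.9%, against 38.5%). In the authors' deposited table for PABP2_KD 68 of the 70 close pairs that edgeR called toward the distal site were among the lengthened ones, and in those for the other 7 knockdowns all such pairs were, from 18 of 18 in CstF50_KD to 91 of 91 in cbc_KD.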

How the data were processed

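The data were 18 QuantSeq forward 3′-end libraries of testes, 2 in each of 9 groups set by the labels. Reads were aligned to dm6 with Bowtie and handled with SAMtools, per the submitters' processing notes, which give no versions. Per the labels and file headers, the authors used PolyA-miner to count reads in 30-nt blocks at 1098 listed sites, without strand or UMIs. The authors deposited raw counts per site, a signed index score per gene (positive for lengthening) and an adjusted p-value from a beta-binomial test.

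From the counts, site use was tested with edgeR 4.0.16 (R 4.3.3): proximal and distal columns of each library, a coefficient per library, one dispersion fit over all 9 groups, a quasi-likelihood F test per knockdown and Benjamini-Hochberg adjustment over the 525 genes that averaged 10 counts or more per library. Totals of both sites were tested with edgeR after TMM scaling. DESeq2 1.42.0 was an alternative. The scripts were run on simulated counts with the same spread in every library, which cannot show how calls behave in the noisier groups. Site and gene positions are dm6. Close pairs, gene lists and the rule for named genes (the largest called changes per knockdown, recurrent calls, most counts, largest totals, pairs at the limit, list members) were chosen with earlier results of these data known. Pairs named outside the rule were chosen after their values were seen.

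Replicate numbers are shared between groups, but nothing ties them to a day or batch, so the fit has no block. Sample numbers in the file headers repeat between groups, for instance between the control and PABP2_KD, so the libraries do not form a single numbered series. What these numbers stand for is not given. A difference between such series could not be told apart from an effect of a knockdown. The targeted genes are not among the genes measured, so knockdown was not checked here. Of 19 germline and somatic marker genes 5 are in the tables, too few to follow cell types. No genome sequence was used, so no site sequence is shown.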

Additional observations from a re-analysis of the deposited data

How the results depend on the processing

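Of the results that answer a comparison, 347 values under an alternative kept their direction and size, 44 moved and 1 reversed. The median change in CstF50_KD was -0.734 without control replicate 1 (range -0.734 to 1.15). Leaving out 1 library gave 2 to 4 pairs toward the proximal site in PCF11_KD, 5 to 11 in CstF64_KD, 12 to 20 in CstF50_KD, 17 to 24 in CPSF6_KD and 7 to 15 in PABP2_KD, 11 to 13 toward the distal site in CstF50_KD, 28 to 35 called totals in CstF50_KD, 46 to 56 in suf_KD and 31 to 43 in CPSF6_KD, and median changes of -9.65 to -7.09 in suf_KD and 0.311 to 2.36 in CPSF6_KD. Among pairs at most 200 nt apart (102 tested) the counts toward the proximal site were 7 in PCF11_NIG_KD, 7 in CstF64_KD, 13 in CstF50_KD, 1 in suf_KD, 18 in CPSF6_KD and 7 in PABP2_KD, with 13 toward the distal site in CPSF6_KD, 40 called totals in PCF11_NIG_KD and 32 in CPSF6_KD, and a median of -13.7 in PCF11_NIG_KD. Among pairs at least 150 nt apart (87 tested, chosen after seeing the data) the distal counts were 47 in PCF11_KD, 38 in PCF11_NIG_KD, 56 in cbc_KD, 26 in CstF64_KD, 12 in CstF50_KD, 32 in suf_KD and 44 in PABP2_KD, the proximal count in PCF11_KD was 3, and medians were -11.0 in PCF11_KD, -23.4 in cbc_KD and -5.57 in suf_KD; both limits leave fewer pairs. With the control and 1 knockdown's libraries alone, suf_KD had 6 proximal calls, and PABP2_KD 46 distal and 6 proximal. With no other gene at a site the CPSF6_KD median was 2.78. The cause was not tested where no fewer pairs or samples enter. Over the pairs named by rule as the largest changes in site use or totals, 769 values under an alternative kept their call and 46 lost it; over all 554 calls of site use in close pairs, 453 of 2216 values without a library (20.4%) lost it.

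With the replicate block the distal counts were 78 in PCF11_KD, 70 in PCF11_NIG_KD, 95 in cbc_KD, 42 in CstF64_KD, 21 in CstF50_KD, 55 in suf_KD, 21 in CPSF6_KD and 73 in PABP2_KD. Same-numbered libraries deviated together little (correlation of replicate differences with the control, -0.0482 to 0.204), with 2 pairs per comparison. Depth limits the pairs with few counts, and 2 libraries a group limit all.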
